A study of Mus musculus with 12 samples.

Results

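The transcripts described here are RNAs encoded by the mitochondrial genome itself, measured in primary hepatocytes of the mouse, the parenchymal cells of the liver, kept in culture. They are the listed genes of the mitochondrial chromosome (chrM) whose counts were usable: the ribosomal RNAs mt-Rnr1 and mt-Rnr2 and the messenger RNAs mt-Nd1, mt-Nd2, mt-Co1, mt-Nd4, mt-Nd5, mt-Nd6 and mt-Cytb. These are 9 of the 37 chrM genes among 55487 gene identifiers. They were chosen by name, position and usable counts, though with earlier results of these data known. All 9 passed the filter on low counts. The cells fall into 4 groups of 3 libraries each. Control cells had no scavenger and no FAC, and FAC cells received FAC with no scavenger; the labels give only that abbreviation. Lip-1+FAC cells were first given liproxstatin-1, a scavenger of lipid reactive oxygen species, and MT+FAC cells were first given Mito-TEMPO, a scavenger of mitochondrial reactive oxygen species. Both scavengers were given on day 2 of culture and were followed by FAC. No group had a scavenger without FAC, so each scavenger was compared only in the presence of FAC. The labels give no strain, age or sex of the mice, no dose and no exposure time. They do not say whether replicates came from separate mice or cultures, so p-values measure only the spread between these libraries, which may be technical.

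Mitochondria keep a small circular genome that encodes ribosomal RNAs, transfer RNAs and a few hydrophobic subunits of the respiratory chain. Both strands are copied from promoters near the control region into long precursors, which are cut into single RNAs mostly at the transfer RNAs that lie between the genes. The ribosomal RNAs stand first on the heavy-strand precursor and the mRNAs follow, while mt-Nd6 is copied from the light-strand promoter. Most mature mRNAs then have a poly(A) tail of their own, which mt-Nd6 is known largely to lack, and a stability of their own, so transcripts cut from the same precursor can differ in level. Hepatocytes hold many mitochondria, and their respiratory chain is both a main consumer of oxygen and a known source of reactive oxygen species.

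The 3′ ends of the annotated mRNA genes are shown because the cDNA kit primes on poly(A), although little of mt-Nd6 is known to carry such a tail. The last 30 bases of each mRNA gene are shown 5′ to 3′ on the sense strand from GENCODE M21 (build GRCm38), with the last codon, complete or not, in capitals.
mt-Nd1: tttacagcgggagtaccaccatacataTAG
mt-Nd2: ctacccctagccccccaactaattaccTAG
mt-Co1: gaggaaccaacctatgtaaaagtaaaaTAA
mt-Nd4: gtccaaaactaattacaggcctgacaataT
mt-Nd5: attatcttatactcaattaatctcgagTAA
mt-Nd6: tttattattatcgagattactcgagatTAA
mt-Cytb: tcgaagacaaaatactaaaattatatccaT
The genes mt-Nd4 and mt-Cytb end in a lone T, and in the mature RNA the poly(A) tail completes the stop codon. The other 5 genes encode a whole stop codon. In the annotation each of the 7 genes ends with the codon shown, but these data do not give where the mature RNAs end and so where priming began.

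The ends of mt-Nd5 and mt-Nd6 are shown again because these genes run towards each other and share 14 bases, in capitals here, at chrM:13552-13565.
mt-Nd5: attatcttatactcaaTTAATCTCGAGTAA
mt-Nd6: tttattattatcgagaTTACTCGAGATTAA
Read without regard to strand, a fragment that touches both genes is ambiguous and is counted for neither. Summing the strand-specific columns of the deposited files gave 1.77 times as many counts for mt-Nd6 and 1.11 times as many for mt-Nd5, against 1.00 to 1.01 times for the other 7 members. In that sum a fragment touching both genes counts for both, for mt-Nd5 in a strand column and for mt-Nd6 in the opposite column. The totals went from 37968 to 67361 counts for mt-Nd6 and from 261709 to 290941 for mt-Nd5. The libraries do not keep strand, so reads of mt-Nd6 and of RNA antisense to it cannot be told apart. The boundary between rRNA and mRNA on the heavy-strand precursor is the leucine transfer RNA gene mt-Tl1 (chrM:2676-2750, plus strand), shown with its anticodon in capitals because the comparison of rRNAs with mRNAs below turns on it.
mt-Tl1: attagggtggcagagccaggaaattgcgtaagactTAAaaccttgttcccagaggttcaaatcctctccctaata

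In GRCm38 the members lie on chrM in this order. The small-subunit rRNA gene mt-Rnr1 (ENSMUSG00000064337) spans bases 70 to 1024 and the large-subunit rRNA gene mt-Rnr2 (ENSMUSG00000064339) spans 1094 to 2675. Subunit genes of complex I and complex IV come next in this set: mt-Nd1 (ENSMUSG00000064341) at 2751 to 3707, mt-Nd2 (ENSMUSG00000064345) at 3914 to 4951, mt-Co1 (ENSMUSG00000064351), the catalytic subunit of cytochrome c oxidase, at 5328 to 6872, and mt-Nd4 (ENSMUSG00000064363) at 10167 to 11544. The far end holds mt-Nd5 (ENSMUSG00000064367) at 11742 to 13565, mt-Nd6 (ENSMUSG00000064368) on the opposite strand at 13552 to 14070, and mt-Cytb (ENSMUSG00000064370), the cytochrome b subunit of complex III, at 14145 to 15288. Their GC content runs from 34.1% to 39.9%, against a median of 49.3% over 8993 expressed nuclear protein-coding genes.

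Copies of mitochondrial sequence in nuclear chromosomes limit which genes can be counted, since reads with several matches are not assigned. Of the 100-base windows of mt-Co2, mt-Atp6 and mt-Co3, 99.5%, 99.5% and 99.9% are identical to annotated nuclear pseudogenes, and those genes were left out; mt-Co3 had 20 to 184 counts per library. Among the members, mt-Nd4 shares 60.8% of its windows with the pseudogene Gm28439, mt-Co1 shares 30.8% with Gm29216 and Gm13340, and mt-Nd2 shares 3.19% with Gm13339. The other 6 members share none with an annotated nuclear transcript. Counts of mt-Nd4 and mt-Co1 therefore come from part of the gene and understate their level against other genes.

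Depth was 22991598 to 31683376 gene-assigned counts in 11 libraries and 52529278 in FAC replicate 2. The hepatocyte markers Alb, Ttr and Apoa1 averaged 8287 to 9796, 1087 to 1500 and 2177 to 3438 CPM over the groups. CPM of marker genes are counts relative to the gene-assigned total, and CPM of the members and of other named genes are TMM-scaled as well. Members had 1436 to 335145 counts each per library. The globin genes Hba-a1, Hba-a2 and Hbb-bs of red cells and the T or B cell markers Cd3e, Cd3g and Cd79a were at or near 0 in every group. In bulk RNA, fewer cells or mitochondria and less RNA per cell cannot be told apart.

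The members together took up a smaller share of all counts in both scavenger groups than in either group without a scavenger. Their share was 1.21%, 0.953% and 1.12% of gene-assigned counts in control replicates 1 to 3, and 1.22%, 1.15% and 1.23% with FAC alone. It was 0.738%, 0.797% and 0.717% with Lip-1+FAC and 0.638%, 0.698% and 0.710% with MT+FAC. Values of single libraries are given in the order of replicates 1 to 3 throughout, an order that carries no meaning. The scavenger groups did not overlap the others, and each of them also did not overlap the other. The mean share in MT+FAC was 0.682% ± 0.0384 (SD, n = 3) against 1.20% ± 0.0455 in FAC. An exact two-sided permutation test of 3 against 3 cannot go below p = 0.1, which is the value it gave for every comparison between a scavenger group and FAC, and the adjusted p over 24 ratio tests was 0.2. The share of multimapping reads, which hold any member reads lost to nuclear copies, was also lower with a scavenger: 4.88% to 5.19% against 5.53% to 6.23% in control and FAC. Unmapped reads were 6.02% to 6.75% with a scavenger and 6.94% to 10.1% without, and gene-assigned reads were 80.4% to 81.2% and 75.8% to 79.8%. The part of these shares in the member counts was not tested.

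**Figure D1:**
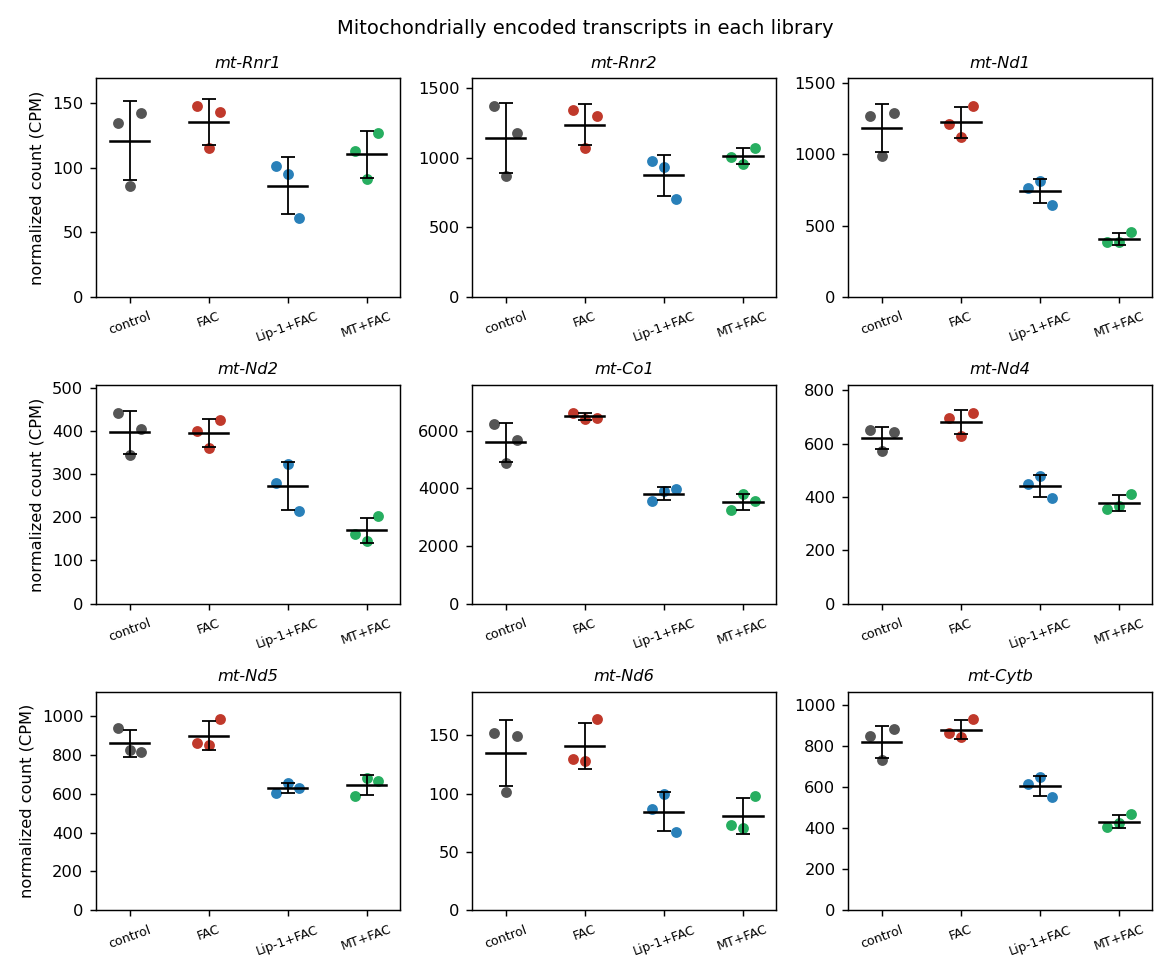
Normalized counts (CPM, linear axis from 0) of each of the 9 transcripts in every library, 3 points per group, with the group mean (line) and SD (bars). In MT+FAC the points of mt-Nd1 lie at 383 to 458, below every other group, while those of mt-Rnr1 lie at 91.0 to 127, inside the control range.

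Per kilobase of gene, mt-Co1 was the most abundant member in control cells at 3628 ± 437 CPM per kb (SD, n = 3), and it stayed first in every group. It was followed in control by mt-Nd1 at 1238 ± 178, mt-Rnr2 at 721 ± 160 and mt-Cytb at 719 ± 69.4 CPM per kb. The last pair did not differ beyond its spread. Next came mt-Nd5 at 470 ± 37.0 and mt-Nd4 at 451 ± 30.4, also within each other's spread. They were followed by mt-Nd2 at 382 ± 48.1, mt-Nd6 at 259 ± 54.6 and mt-Rnr1 at 126 ± 31.8 CPM per kb. Control libraries of mt-Nd4 (416 to 471) and mt-Nd2 (331 to 426) overlapped. The place of mt-Nd4 holds only per kb of the whole gene, part of which cannot be counted. Per kb of windows not shared with a pseudogene, mt-Nd4 averaged 1238 CPM in control, under mt-Nd1 at 1381. That was above mt-Cytb at 787, mt-Rnr2 at 769 and mt-Nd5 at 497, while mt-Co1 stayed first at 5605. The place of mt-Nd6 holds for the unstranded column alone. With strand columns summed, mt-Nd6 averaged 440 ± 66.2 CPM per kb in control, where mt-Nd5 averaged 521 ± 45.1, mt-Nd4 451 ± 30.4 and mt-Nd2 382 ± 48.2. The mt-Nd6 libraries then overlapped those of each of these. That sum counts the fragments shared with mt-Nd5 for both genes, so it is not a level of mt-Nd6 alone. The values of both rRNAs are levels after priming on poly(A), not of total rRNA. In MT+FAC the order differed: mt-Rnr2, at 639 ± 36.5 CPM per kb, stood above mt-Nd1 at 427 ± 44.7, and those libraries did not overlap.

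With FAC alone, 1 of the 9 members, mt-Co1, was called against control, higher, at an adjusted p under 0.05 in edgeR's quasi-likelihood test, where 36.6% of 13535 genes were called in either direction and 17.5% were called higher. It was measured at 6241, 4896 and 5677 CPM in control and at 6634, 6419 and 6460 CPM in FAC, so every FAC library was above every control library, as held for 21.7% of genes tested. The log2 fold change was 0.21 (SE 0.0783) with a Benjamini-Hochberg adjusted p of 0.0398 in edgeR. That call was lost when control replicate 2, the lowest control, was left out (log2 fold change 0.13, adjusted p 0.216 in edgeR), and also with upper-quartile scaling (0.20, adjusted p 0.0561) and in 4 further fits that each left out 1 library. The other 8 members had log2 fold changes from -0.006 for mt-Nd2 to 0.16 for mt-Rnr1, none called, and their control and FAC libraries overlapped. The 95% interval of the log2 fold change ran from -0.18 to 0.28 for mt-Nd1, and it was wider for mt-Rnr1 (-0.32 to 0.64), mt-Rnr2 (-0.22 to 0.46) and mt-Nd6 (-0.34 to 0.47). Offsets for GC content and length, an alternative chosen after seeing the data, called 5 members higher, mt-Nd1, mt-Co1, mt-Nd4, mt-Nd5 and mt-Cytb. With those offsets 5021 of the 13535 genes tested were called in either direction, against 4960 in the main fit.

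With liproxstatin-1 before FAC, all 7 mRNAs and the large rRNA were called lower. Against FAC alone 8 of the 9 members were called lower, by 0.50 to 0.77 on the log2 scale (edgeR, adjusted p under 0.05). Over all genes tested, 19.2% were called lower and 39.9% were called in either direction. The small rRNA mt-Rnr1 was also lower, by -0.65, but was not called in edgeR (adjusted p 0.0657, and 0.0188 in DESeq2). The median log2 fold change of the 9 was -0.63, and the median over all genes tested lay between -0.020 and 0.0021 in each of the 6 comparisons made. All 9 members had their highest Lip-1+FAC library below their lowest FAC library, where 24.4% of genes did. Of these 8 calls, 5 (mt-Nd1, mt-Co1, mt-Nd4, mt-Nd5 and mt-Cytb) held in each fit that left out 1 library. The calls of mt-Rnr2, mt-Nd2 and mt-Nd6 were each lost in some of those fits, among them the fit without Lip-1+FAC replicate 3, the library with the lowest rRNA levels, where their adjusted p in edgeR was 0.124, 0.0668 and 0.0665. Without the filter on low counts 5 members were called.

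With Mito-TEMPO before FAC, all 7 mRNAs fell, and neither rRNA passed the test. The fall ran from 28.3% for mt-Nd5 to 66.7% for mt-Nd1. Against FAC alone 7 of the 9 members fell (edgeR, adjusted p under 0.05), where 19.7% of genes tested were called lower and 40.9% in either direction. The median log2 fold change of the 9 was -0.85. These 7 were called again in each fit that left out 1 library and under each scaling, filter and test tried. Groups did not overlap for 8 members, the exception being mt-Rnr1, where 25.7% of genes were lower without overlap. Both scavenger comparisons use the same FAC libraries and so are not independent of each other.

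**Figure D2:**
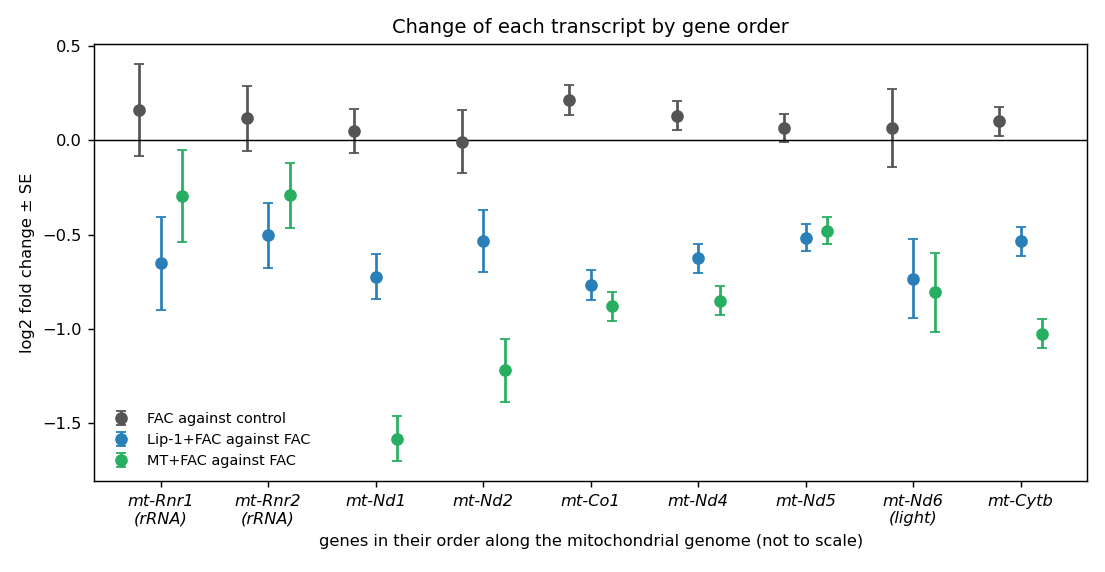
Log2 fold change of each transcript with its SE (edgeR) in 3 comparisons, with genes in their order along the mitochondrial chromosome. With Mito-TEMPO the values run from -1.59 at mt-Nd1 to -0.29 at the rRNA mt-Rnr2, and with liproxstatin-1 they lie between -0.77 and -0.50.

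The rRNAs come first in gene order. The small-subunit rRNA mt-Rnr1 stood at 135, 86.0 and 141.9 CPM in control, 135 ± 17.8 (SD, n = 3, from 115 to 147.8) with FAC alone, 101, 95.3 and 60.7 with Lip-1+FAC and 113, 91.0 and 127 with MT+FAC. Only Lip-1+FAC was wholly below FAC, by -0.65 on the log2 scale (SE 0.247), with an adjusted p of 0.0657 in edgeR, which is not a call, although DESeq2 gave 0.0188. The large-subunit rRNA mt-Rnr2 stood at 1373, 871 and 1176 CPM in control, 1343, 1072 and 1298 with FAC alone, 979, 932 and 706 with Lip-1+FAC and 1005, 955 and 1070 with MT+FAC. Its log2 fold change against FAC was -0.50 (SE 0.173, edgeR adjusted p 0.0420) with liproxstatin-1 and -0.29 (SE 0.172, edgeR adjusted p 0.208) with Mito-TEMPO. Every MT+FAC library of mt-Rnr2 was just under the lowest FAC library, and a fit on those 6 libraries alone gave an adjusted p of 0.00989 in edgeR, so whether this rRNA was called depended on which libraries set the spread.

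Of the complex I subunits, mt-Nd1, which lies next to the rRNAs, had the largest fall with Mito-TEMPO. It was measured at 1273, 988 and 1292 CPM in control, 1212, 1126 and 1342 with FAC alone, 765, 815 and 648 with Lip-1+FAC and 383, 386 and 458 with MT+FAC. The scavenger groups were ordered without overlap, with MT+FAC lowest. Its level with Mito-TEMPO was 0.333 times that in FAC (log2 fold change -1.59, SE 0.121, edgeR adjusted p 1.04e-06), and with liproxstatin-1 it was 0.605 times (log2 fold change -0.72, SE 0.118, edgeR adjusted p 0.000404).

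The next gene, mt-Nd2, behaved in a like order at a lower level. It was measured at 442, 343 and 404 CPM in control, 400, 360 and 424 with FAC alone, 278, 324 and 215 with Lip-1+FAC and 160, 145.6 and 202 with MT+FAC. Its log2 fold change against FAC was -1.22 (SE 0.168, edgeR adjusted p 0.000293) with Mito-TEMPO and -0.54 (SE 0.166, edgeR adjusted p 0.0275) with liproxstatin-1.

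Further along the chromosome, the complex I subunit mt-Nd4 was measured at 649, 573 and 642 CPM in control, 697, 630 and 716 with FAC alone, 450, 477 and 396 with Lip-1+FAC and 354, 367 and 411 with MT+FAC. Its scavenger groups overlapped each other and lay below both other groups, with log2 fold changes against FAC of -0.85 (SE 0.0772) and -0.63 (SE 0.0769) for Mito-TEMPO and liproxstatin-1. The adjusted p in edgeR was 3.17e-07 and 5.63e-06.

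The complex I subunit mt-Nd5 had the smallest fall of the mRNAs with Mito-TEMPO. It was measured at 935, 826 and 811 CPM in control, 861, 849 and 981 with FAC alone, 601, 653 and 626 with Lip-1+FAC and 586, 679 and 666 with MT+FAC. Both scavenger groups lay below both other groups and overlapped each other. The log2 fold change against FAC was -0.48 (SE 0.0725, edgeR adjusted p 5.25e-05) with Mito-TEMPO and -0.52 (SE 0.0726, edgeR adjusted p 2.02e-05) with liproxstatin-1.

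The light-strand transcript mt-Nd6 was measured at 152.2, 102 and 150 CPM in control, 130, 128 and 164 with FAC alone, 87.0, 99.7 and 66.8 with Lip-1+FAC and 72.9, 70.5 and 98.4 with MT+FAC. All scavenger libraries lay below all others, with log2 fold changes against FAC of -0.81 (SE 0.210, edgeR adjusted p 0.0131) for Mito-TEMPO and -0.73 (SE 0.210, edgeR adjusted p 0.0204) for liproxstatin-1. With offsets for GC content and length these became -0.32 and -0.47, so the size of the mt-Nd6 fall depended on that correction, and its strand cannot be read from these libraries. As the libraries were primed on poly(A), its values are levels of what was primed, not of all mt-Nd6 RNA.

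For complex III, mt-Cytb lies last on the heavy-strand precursor. It was measured at 852, 732 and 883 CPM in control, 867, 848 and 932 with FAC alone, 618, 652 and 555 with Lip-1+FAC and 405, 425 and 468 with MT+FAC. The log2 fold change against FAC was -1.03 (SE 0.0773, edgeR adjusted p 4.92e-08) with Mito-TEMPO and -0.54 (SE 0.0767, edgeR adjusted p 2.82e-05) with liproxstatin-1. As with mt-Nd1, the groups with Mito-TEMPO, with liproxstatin-1 and without a scavenger did not overlap.

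For complex IV, mt-Co1 in the scavenger groups was measured at 3566, 3923 and 3972 CPM with Lip-1+FAC and 3239, 3802 and 3546 with MT+FAC, against 6419 to 6634 in FAC. The scavenger groups overlapped each other and lay below every library without a scavenger. The log2 fold change against FAC was -0.88 (SE 0.0789, edgeR adjusted p 2.69e-07) with Mito-TEMPO and -0.77 (SE 0.0787, edgeR adjusted p 8.15e-07) with liproxstatin-1.

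Set directly against each other, the scavenger groups differed in 2 members. Against Lip-1+FAC, MT+FAC was lower for mt-Nd1, by -0.86 on the log2 scale (SE 0.119, edgeR adjusted p 0.00329), and for mt-Cytb, by -0.49 (SE 0.0768, edgeR adjusted p 0.00221). In this comparison 1.34% of all genes tested were called in either direction and 0.879% were called lower. Both calls held in each fit that left out 1 library. For mt-Nd2 the log2 fold change was -0.69 (SE 0.167) with an edgeR adjusted p of 0.0870, and it was called by DESeq2 (adjusted p 0.000145), with offsets for GC content and length (edgeR adjusted p 0.00326) and without Lip-1+FAC replicate 3 (edgeR adjusted p 0.0266). These 3 were also the members whose groups did not overlap, where 9.60% of genes were lower without overlap. The others were not called: mt-Nd4 at -0.23 (edgeR adjusted p 0.178, but 0.0200 and so called without the filter on low counts), mt-Co1 at -0.11, mt-Nd6 at -0.07, mt-Nd5 at 0.04, mt-Rnr2 at 0.21 and mt-Rnr1 at 0.36. The 95% interval of the log2 difference for mt-Nd5 was -0.10 to 0.18, and for mt-Rnr1 it was -0.13 to 0.84.

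Against control cells, which the FAC comparison also uses, both scavenger groups had the 7 mRNAs called lower and neither rRNA called. With liproxstatin-1 all 7 mRNAs were called lower (edgeR, adjusted p under 0.05), where 14.8% of genes were called lower and 30.2% in either direction, with log2 fold changes from -0.43 for mt-Cytb to -0.67 for mt-Nd1. With Mito-TEMPO the same count of 7 was called lower, where 10.1% of genes were and 19.8% were called in either direction, with log2 fold changes from -0.41 for mt-Nd5 to -1.53 for mt-Nd1. In both comparisons the libraries of those 7 did not overlap, where 22.0% and 19.2% of genes were lower without overlap. The rRNA log2 fold changes with liproxstatin-1 were -0.49 for mt-Rnr1 (95% interval -0.98 to -0.0042) and -0.39 for mt-Rnr2 (-0.72 to -0.048), the former within the range of the called mRNAs, and mt-Rnr2 was called without control replicate 2 (-0.54, edgeR adjusted p 0.0137). With Mito-TEMPO they were -0.13 (-0.62 to 0.35) and -0.17 (-0.51 to 0.16). The call of mt-Nd6 against control was lost in 4 of the 6 fits of each comparison that left out 1 of its libraries, as was that of mt-Nd2 with liproxstatin-1, and with Mito-TEMPO it was also lost with offsets for GC content and length (-0.21, edgeR adjusted p 0.118). These calls were also lost in a fit on only the libraries compared, with adjusted p in edgeR of 0.0541 for mt-Nd6 with Mito-TEMPO, and 0.0595 for mt-Nd6 and 0.0513 for mt-Nd2 with liproxstatin-1. Without the filter on low counts the same adjusted p were 0.0884, 0.0993 and 0.101.

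The mRNAs were lower relative to the rRNAs in MT+FAC, a ratio within each library that does not depend on library scaling. Summed over the 7 mRNAs and both rRNAs, the log2 ratio of mRNA to rRNA counts was 2.95 ± 0.174 (SD, n = 3) in control, 2.97 ± 0.139 with FAC alone, 2.80 ± 0.263 with Lip-1+FAC and 2.33 ± 0.141 with MT+FAC. As counts, there were 7.85 mRNA counts per rRNA count in FAC and 5.03 in MT+FAC, at the mean of the logs. The highest MT+FAC library, at 2.49, was below the lowest library of every other group, at 2.56. The difference from FAC was -0.64, with an exact permutation p of 0.1 (two-sided, 3 against 3, the smallest possible) and an adjusted p of 0.2 over 24 tests. Lip-1+FAC and FAC overlapped, with a difference of -0.17 and an exact permutation p of 0.4. That difference was -0.055 without Lip-1+FAC replicate 1, -0.098 without FAC replicate 2 and -0.32 without Lip-1+FAC replicate 3.

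**Figure D3:**
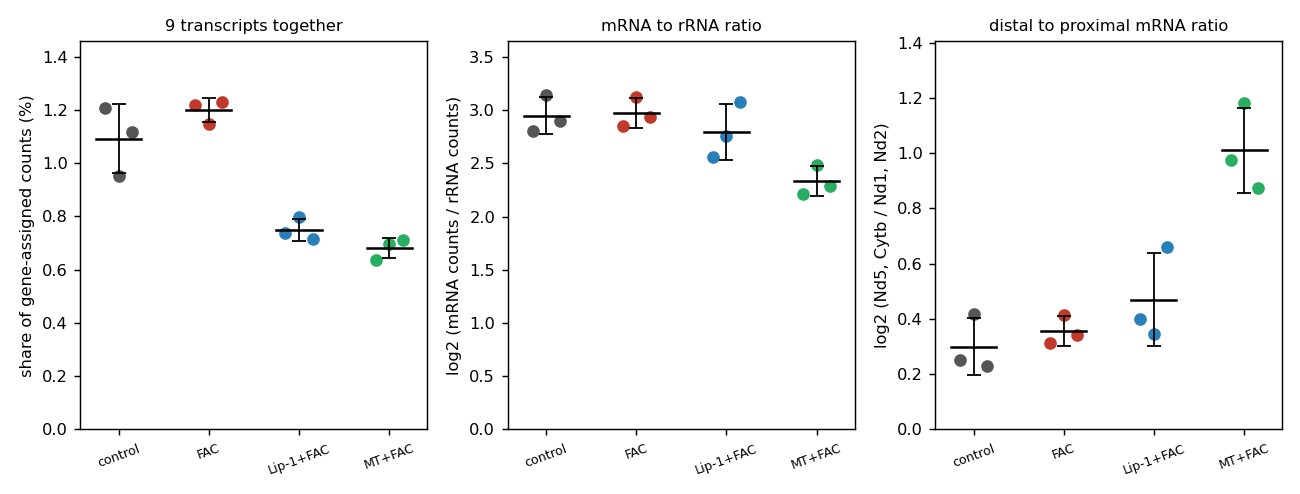
Share of gene-assigned counts held by the 9 transcripts (%), log2 ratio of mRNA to rRNA counts, and log2 ratio of distal (mt-Nd5, mt-Cytb) to proximal (mt-Nd1, mt-Nd2) mRNA, with 3 libraries per group, the mean (line) and SD (bars). MT+FAC has the lowest mRNA to rRNA ratio (2.22 to 2.49) and the highest distal to proximal ratio (0.875 to 1.18).

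Position along the precursor was read from the ratio of distal mRNAs (mt-Nd5 and mt-Cytb) to proximal ones (mt-Nd1 and mt-Nd2). The mean log2 ratio was 0.30 ± 0.103 in control, 0.36 ± 0.0530 with FAC alone, 0.47 ± 0.168 with Lip-1+FAC and 1.01 ± 0.155 with MT+FAC (SD, n = 3). The MT+FAC libraries, at 0.875 to 1.18, lay above all 9 others, of which the highest was 0.661. The difference from FAC was 0.65, with an exact permutation p of 0.1 and an adjusted p of 0.2 over 24 tests. Gene order did not rank the members throughout: at the far end mt-Nd5 and mt-Cytb, both in the numerator, had 95% intervals of their MT+FAC against FAC log2 fold changes that did not overlap (-0.62 to -0.34 and -1.18 to -0.88). The mt-Nd6 to heavy-strand mRNA log2 ratio was -2.96 ± 0.126 in FAC and -2.76 ± 0.168 in MT+FAC, which overlapped in the unstranded counts. With strand columns summed it was -2.23 ± 0.0890 in FAC and -1.82 ± 0.0999 in MT+FAC, a difference of 0.42. Those libraries did not overlap (-2.33 to -2.15 and -1.89 to -1.70), and the exact two-sided permutation p was 0.1, the smallest that 3 against 3 can give. The summed mt-Nd6 counts hold the fragments shared with mt-Nd5, so the summed ratio does not describe the light-strand transcript alone.

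The composition of the mRNA pool shows the same values as shares. In FAC libraries mt-Nd1 held 10.9% to 12.2% of the 7 mRNAs' counts and in MT+FAC 6.57% to 7.83%, while Lip-1+FAC, at 9.995% to 12.02%, overlapped FAC. For mt-Nd5 the shares were higher with both scavengers than with FAC alone. They were 7.97% to 8.91% in FAC, 9.41% to 9.67% with Lip-1+FAC and 11.3% to 11.6% with MT+FAC, with no overlap between these groups. Control shares of mt-Nd5, 8.23% to 9.76%, overlapped those of both FAC and Lip-1+FAC. The share of mt-Cytb was 8.22% ± 0.218 (SD, n = 3) in FAC, 9.22% ± 0.586 with Lip-1+FAC and 7.67% ± 0.397 with MT+FAC. The dominant mRNA, mt-Co1, held 58.6% to 62.0% in FAC and 60.6% to 64.7% in MT+FAC, which overlap. Shares sum to a whole, so that a lower share of mt-Nd1 raises the others.

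**Figure D4:**
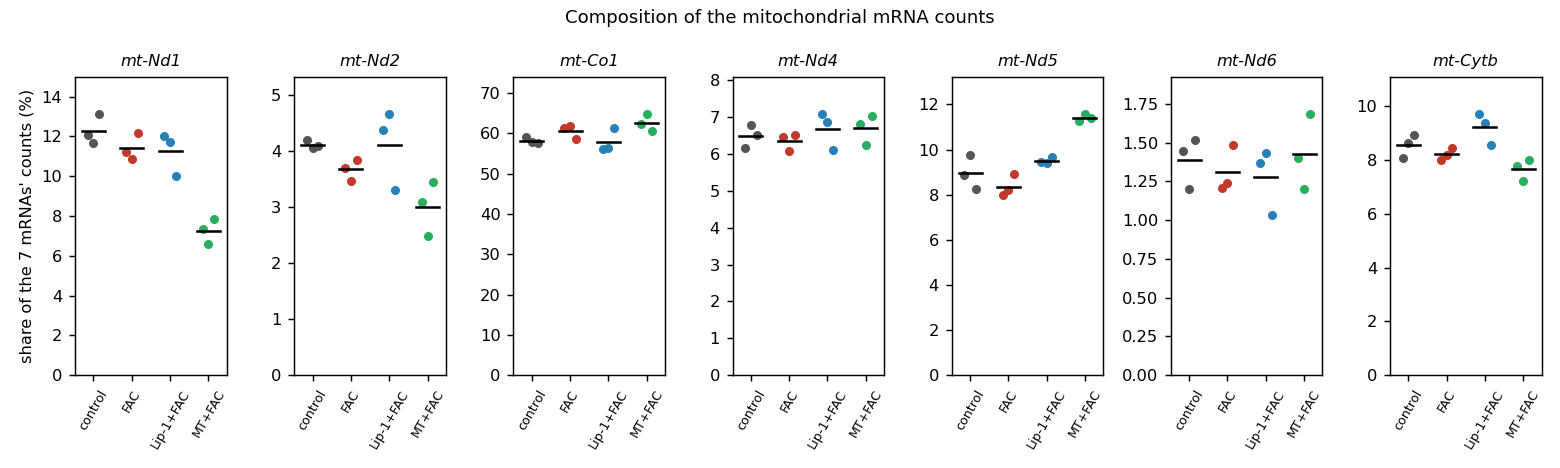
Share of each mRNA in the counts of the 7 mitochondrial mRNAs (%), with 3 libraries per group and the mean as a line. MT+FAC lies below all other groups for mt-Nd1 (6.57% to 7.83%) and above them for mt-Nd5 (11.3% to 11.6%).

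Across the 12 libraries the rRNAs followed each other (Pearson r = 0.956 on log2 CPM), and the mRNAs followed each other with r from 0.797 for mt-Nd2 with mt-Nd5 to 0.996 for mt-Nd1 with mt-Cytb. Between rRNAs and mRNAs r was 0.441 for mt-Rnr1 with mt-Nd1 and 0.817 for mt-Rnr2 with mt-Nd6, the ends of the range. These are descriptions over libraries that share groups, scaling and depth. The nuclear genes most like the mean of the 7 mRNAs, out of 8993 ranked, were Mup21 (r = 0.966), a major urinary protein gene, Rps23 (0.959), a ribosomal protein gene, Rbm3 (0.957), a cold-inducible RNA-binding protein gene, and the apolipoprotein genes Apoa2 (0.948) and Apoc1 (0.948). For example, Apoa2 averaged 1157 ± 221 CPM in FAC and 576 ± 97.6 in Lip-1+FAC (SD, n = 3). The longest transcripts of these 5 genes measure 518 to 2792 bases, against a median of 3407 for the genes ranked.

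The nuclear genes for mitochondrial transcription and mtDNA replication included more that rose than fell with each scavenger. Of 26 listed, all tested, 9 rose and 1 fell in Lip-1+FAC against FAC (edgeR, adjusted p under 0.05), with a median log2 fold change of 0.15, and 7 rose and 1 fell in MT+FAC against FAC, with a median of 0.14. Over all genes tested, 20.7% were called higher and 19.2% lower with liproxstatin-1, and 21.2% higher and 19.7% lower with Mito-TEMPO, so the 7 of 26 that rose lie near the share over all genes. In FAC against control 3 rose and 7 fell, where 17.5% of all genes were called higher and 19.1% lower, with a median of -0.15, and between the scavengers 0 were called in edgeR, 2 had an unadjusted p under 0.05 and DESeq2 called 1. Tefm, the mitochondrial transcription elongation factor, fell from 13.8 ± 0.973 CPM in control to 10.04 ± 0.558 in FAC and was 14.3 ± 0.967 in MT+FAC, higher than FAC by 0.51 on the log2 scale (SE 0.105, edgeR adjusted p 0.000876). Tfb2m, which opens the promoter with the mitochondrial RNA polymerase, was the fall among them in MT+FAC, with a change of -0.26 on the log2 scale (SE 0.0757, edgeR adjusted p 0.0113). In Lip-1+FAC the largest rise among genes of at least 5 CPM was Ppargc1a, a coactivator of mitochondrial biogenesis, at 0.59 (SE 0.132, edgeR adjusted p 0.00173), and the fall was Polg, the mtDNA polymerase, at -0.21 (SE 0.0665, edgeR adjusted p 0.0203). In FAC against control the largest fall among genes of at least 5 CPM was Mterf4, which takes part in mitochondrial ribosome assembly, at -0.56, and the largest rise was Mterf3, a repressor of mtDNA transcription, at 0.28. The mitochondrial RNA polymerase gene Polrmt, singled out after its values were seen, was not called in any of the 6 comparisons, with log2 fold changes of -0.12 against FAC in both scavenger groups.

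Genes of mitochondrial RNA processing, stability and decay were called in both directions, as genes were over all those tested. Of 26 tested among 28 listed, 10 rose and 5 fell in Lip-1+FAC against FAC, 8 rose and 3 fell in MT+FAC against FAC, and 3 rose and 7 fell in FAC against control (edgeR, adjusted p under 0.05). Over all genes tested the shares called higher and lower were 20.7% and 19.2% with liproxstatin-1, 21.2% and 19.7% with Mito-TEMPO, and 17.5% and 19.1% with FAC. The list's medians were 0.06, 0.03 and -0.10. The largest rise with FAC was Trmt10c, a subunit of the enzyme that cuts the 5′ ends of mitochondrial transfer RNAs and so frees the RNAs between them. It averaged 55.4 ± 1.81 CPM in control, 92.6 ± 4.89 with FAC alone, 70.6 ± 3.25 with Lip-1+FAC and 56.0 ± 3.89 with MT+FAC (SD, n = 3), with no overlap between FAC and any other group. Its log2 fold change was 0.74 in FAC against control, -0.72 in MT+FAC against FAC and -0.34 in MT+FAC against Lip-1+FAC (edgeR adjusted p 2.47e-07, 3.66e-07 and 0.0191), and it was the gene of this list called between the scavengers. Nsun4, which methylates mitochondrial rRNA, was the largest rise among genes of at least 5 CPM in both scavenger groups, from 27.02 ± 0.206 CPM in FAC to 40.3 ± 2.25 with liproxstatin-1 and 39.1 ± 0.982 with Mito-TEMPO. Pde12, which removes poly(A) from mitochondrial RNA, was the largest fall with liproxstatin-1, -0.45 on the log2 scale (SE 0.0815, edgeR adjusted p 0.000248). Ptcd2, a pentatricopeptide protein linked to mt-Cytb processing, was the largest fall with FAC among genes of at least 5 CPM, at -0.51 (SE 0.0933, edgeR adjusted p 0.000322).

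**Figure D5:**
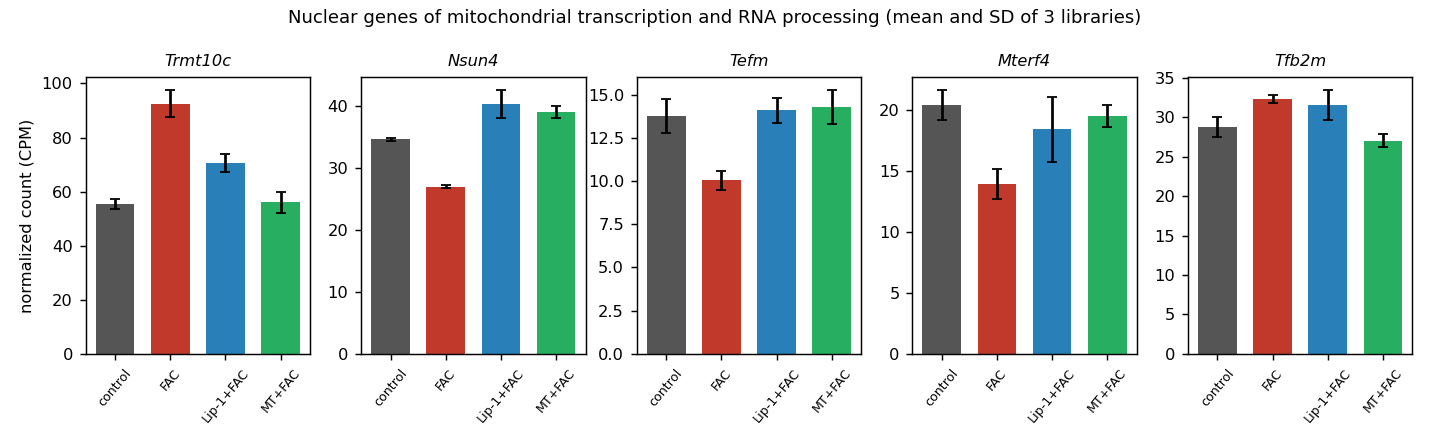
Mean CPM (bars from 0) and SD of 3 libraries per group for 5 nuclear genes of mitochondrial RNA synthesis and processing. Trmt10c is highest in FAC (92.6) and Nsun4, Tefm and Mterf4 are lowest in FAC (27.02, 10.04 and 13.9), while Tfb2m is lowest in MT+FAC (27.1).

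Nuclear subunits of the complexes that hold member proteins were called lower in part with Mito-TEMPO. In MT+FAC against FAC, 13 of 37 complex I subunits fell and 1 rose, 3 of 9 of complex III fell, and 8 of 11 of complex IV fell (edgeR, adjusted p under 0.05), with median log2 fold changes of -0.30, -0.35 and -0.53, where 19.7% of all genes tested were called lower. Examples with the largest fall were Ndufa1 at -0.60, Uqcrq at -0.78 and Cox5a at -0.77. In Lip-1+FAC against FAC the counts that fell were 5 of 37 (2 rose), 3 of 9 and 4 of 11, with medians of -0.22, -0.13 and -0.32, where 19.2% of all genes were called lower and 20.7% higher. The complex I count lies under that share. Complex II, which has no mitochondrially encoded subunit, had 2 of 4 genes rise in each of these comparisons and 0 fall, in edgeR, in DESeq2 and at an unadjusted p under 0.05. DESeq2 called more complex I genes lower, 21 with Mito-TEMPO and 10 with liproxstatin-1. Over all 13535 genes DESeq2 called 5734 and 5579 in either direction in these comparisons, where edgeR called 5541 and 5397. In FAC against control 3 of 37 complex I genes fell, where 19.1% of all genes did, and edgeR and DESeq2 each called 0 of the 20 genes of complexes III and IV, of which 1 had an unadjusted p under 0.05.

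Some markers of cell types moved with the same groups. Of 9 hepatocyte markers tested, 6 fell and 1 rose against FAC in each scavenger group (edgeR, adjusted p under 0.05), where 19.2% of all genes tested were called lower and 20.7% higher with liproxstatin-1 and 19.7% and 21.2% with Mito-TEMPO. Their summed level was 13650 to 15453 CPM with a scavenger and 16633 to 17736 without. The 3 cholangiocyte markers tested rose in FAC and fell with each scavenger, from 4.11 to 5.69 CPM summed in control to 8.66 to 16.7 in FAC, 1.73 to 2.29 with Lip-1+FAC and 2.52 to 3.57 with MT+FAC. The summed macrophage list was 229 to 260 CPM in control, 291 to 321 in FAC, 120 to 149.2 with Lip-1+FAC and 147.7 to 180 with MT+FAC, and nearly all of it was Cd68, a lysosomal membrane protein gene. Cd68 averaged 227 CPM in control, 293 in FAC, 124 with Lip-1+FAC and 145.96 with MT+FAC. It was the member of the list that fell against FAC with each scavenger, while Lyz2, the lysozyme gene of myeloid cells, rose from 2.82 CPM in FAC to 4.35 with Lip-1+FAC and 4.403 with MT+FAC. The defining markers Adgre1, Clec4f and Cd5l averaged 0.426 to 1.21 CPM, and Clec4f rose with MT+FAC (from 0.496 to 1.18 CPM).

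In the endothelial, stellate or fibroblast, and erythroid marker lists, 1 tested gene of each fell against FAC with each scavenger (edgeR, adjusted p under 0.05). The counts of 1 in 6 endothelial and 1 in 5 stellate or fibroblast genes lie near the 19.2% and 19.7% of all genes called lower. The endothelial list summed to 38.4 to 38.9 CPM in control, 36.2 to 37.5 in FAC, 28.8 to 30.1 with Lip-1+FAC and 30.02 to 33.7 with MT+FAC. Of its 6 genes tested 1 fell against FAC with each scavenger, the scavenger receptor gene Stab2, which averaged 26.3 CPM in FAC, 17.8 with liproxstatin-1 and 19.4 with Mito-TEMPO. The other defining markers, Stab1 and Lyve1, averaged 1.68 to 3.90 CPM. The stellate or fibroblast list summed to 11.5 to 17.5 CPM in control, 20.7 to 22.0 in FAC, 10.1 to 11.9 with Lip-1+FAC and 12.2 to 12.9 with MT+FAC. Of its 5 genes tested 1 fell against FAC with each scavenger, the secreted matrix protein gene Reln, from 15.9 CPM in FAC to 4.51 and 5.28, while Lrat, Des and Pdgfrb averaged at most 0.774 CPM in any group. The erythroid list of 5 summed to 7.17 to 8.52 CPM in control, 7.52 to 12.7 in FAC, 5.01 to 6.19 with Lip-1+FAC and 4.86 to 6.92 with MT+FAC. Nearly all of that was Alas2, the erythroid enzyme that starts heme synthesis, the gene of that list that could be tested, which fell against FAC with each scavenger. Cd68, Lyz2, Stab2, Reln and Alas2 are named after their values were seen. The part of any marker list in the member levels was not tested.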

How the data were processed

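Polyadenylated RNA of 12 libraries of primary mouse hepatocytes, 3 in each of 4 groups, was amplified as full-length cDNA with SMART-Seq v4, made into Nextera XT libraries and sequenced in pairs, per the labels' protocols. The deposited values are raw read counts, 1 file per library, in the layout of STAR, which the submitters' processing notes name with GRCm38; the version and annotation are not given in the sources used here. The unstranded column was used, and the other count columns, summed, as an alternative. Lines that name no gene (unmapped, multimapping, no-feature and ambiguous reads, 18.8% to 24.2% of those listed) stayed out. No columns of other series were present. Of 55487 identifiers, 55227 have a name in GENCODE M21, and the rest hold 0.0021% of counts. FAC replicate 2 is marked as combined in its file name; what was combined is not stated. Reads carry no molecular identifiers.

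Genes kept by filterByExpr (13535) were tested with edgeR 4.0.16 (R 4.3.3) by the quasi-likelihood test over all 12 libraries with 4 group means, TMM scaling and Benjamini-Hochberg adjustment, two-sided, with a threshold of 0.05. The common biological coefficient of variation was 9.71%. Ratios of summed counts were compared by exact permutation tests. Alternatives were RLE and upper-quartile scaling, library size from nuclear genes, other filters, DESeq2 1.42.0, summed strand columns, fewer libraries, a replicate block and, chosen after seeing the data, offsets for GC content and length. The fit was tested on simulated data. Replicate numbers come from the titles: of 18 same-numbered pairs, 3 had correlated deviations (r over 0.1), so the numbers were not taken as pairs. Nuclear copies were sought by aligning chrM genes to annotated transcripts. All 9 members are named. Of the lists of transcription and processing genes, the largest called rise and fall at mean CPM 5 or above are named for each comparison with FAC, and of each respiratory complex at most 1 gene. The likeness ranking had the same CPM limit. The members and lists were chosen with earlier results of these data known.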

Additional observations from a re-analysis of the deposited data

Results flagged for a closer look

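The effect of Mito-TEMPO differed from that of liproxstatin-1, each in FAC-treated cells, for 2 members, by the test of MT+FAC against Lip-1+FAC itself. The difference was -0.86 on the log2 scale for mt-Nd1 (edgeR adjusted p 0.00329) and -0.49 for mt-Cytb (edgeR adjusted p 0.00221), and for both every MT+FAC library was below every Lip-1+FAC library. The effects share the FAC libraries, which drop out of this difference.

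Reads outside every annotated gene, which the comparisons do not use, made up at least 2.92% of listed reads in each FAC library and at most 2.56% in each control library. Their share was 2.27% to 2.47% in Lip-1+FAC and 2.33% to 2.45% in MT+FAC.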

How the results depend on the processing

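In FAC against control, where 1 member was called, 0 were called with upper-quartile scaling, 0 with the replicate block (mt-Co1 at an edgeR adjusted p of 0.0600), 5 with offsets for GC content and length, and 0 to 1 when each library was left out. In Lip-1+FAC against FAC the 8 calls became 5 without the filter on low counts and 5 to 8 with a library left out. The counts with a library left out were 7 in MT+FAC against FAC, 2 to 3 between the scavengers, and 5 to 8 and 6 to 7 for liproxstatin-1 and Mito-TEMPO against control. With the replicate block, calls were also lost for mt-Nd6 against control (edgeR adjusted p 0.0527 with Mito-TEMPO, 0.0618 with liproxstatin-1) and for mt-Nd2 with liproxstatin-1 (0.0611 against control, 0.0502 against FAC). It moved no other count of members by over 1.5 times, and 4 of 12 libraries correlated best with their own number. With all listed reads as the denominator, the difference in member share was -0.320 percentage points for Lip-1+FAC against FAC, -0.376 for MT+FAC against FAC and -0.310 for MT+FAC against control, and with summed strand columns it was -0.475 for MT+FAC against FAC. With those columns the difference in the log2 ratio of mt-Nd6 to heavy-strand mRNA was 0.42 for MT+FAC against FAC and 0.38 for MT+FAC against control, both without overlap. Shares over all listed reads are smaller by construction, since that denominator also holds reads assigned to no gene. In the summed columns a fragment shared by mt-Nd5 and mt-Nd6 counts for both genes. What else enters these shifts was not tested.

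Sign changes occurred only for differences that were not called. For mt-Nd2 in FAC against control, -0.006, the log2 fold change was 0.0129 with RLE scaling, 0.0098 with nuclear library sizes, 0.0069 without the filter, 0.0057 with a mean CPM of at least 1, 0.0029 with strand columns summed, 0.0111 in the libraries compared alone, 0.0131 in DESeq2 and 0.12 with GC and length offsets. With a library left out, values in that comparison ran from -0.10 to 0.081 for mt-Nd2, -0.034 to 0.29 for mt-Rnr1, -0.043 to 0.27 for mt-Rnr2, -0.065 to 0.12 for mt-Nd1, -0.0032 to 0.13 for mt-Nd5 and -0.10 to 0.16 for mt-Nd6. Between the scavengers they ran from -0.015 to 0.11 for mt-Nd5 and -0.24 to 0.063 for mt-Nd6, and mt-Nd6 was 0.0024 with strand columns summed and 0.15 with GC and length offsets. Those offsets also gave 0.21 for mt-Rnr1 and 0.024 for mt-Rnr2 in MT+FAC against control. Between the scavengers, 182 genes in all were called; 477 were without the filter, 312 in the 6 libraries alone, 465 by DESeq2 and 74 to 156 with a library left out.

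Depth does not limit the members, each of which had at least 1436 counts per library. The limits are 3 libraries per group, amplification from poly(A) without molecular identifiers or strand, and reads lost to nuclear copies.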
